A study of Ciona robusta with 9 samples.

Results

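In embryos of the sea squirt Ciona robusta, 79 gene models that already had transcripts in control embryos stood higher with each of 2 plasmids that drive the transcription factor Brachyury (Bra). They were chosen by the measured values themselves. For each gene, the log2 ratio of normalized count + 1 was taken between a construct library and the control library of the same replicate number, which gives 3 ratios for each construct. A gene was kept when its control mean was at least 10 normalized counts, its mean log2 ratio was at least 1 (a doubling) with each construct, and all 6 ratios were above 0. Of 15284 gene models, 11364 had the required control mean. Among those, 208 met the conditions for Etr1>Bra, 116 met those for Tbx6-r.b>Bra, and 79 met both. A further 8 genes had both means but at least 1 ratio that was not above 0.

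The data are 9 RNA sequencing libraries from whole embryos, each from 400 embryos at Hotta stage 19.5, raised at 21 °C after plasmid electroporation of fertilized eggs. In 3 libraries the embryos carried Etr1>Venus-Bra (Etr1>Bra below), in 3 they carried Tbx6-r.b>Venus-Bra (Tbx6-r.b>Bra), and the 3 control libraries carried Bra>GFP. All groups thus received a plasmid, but the regulatory DNA of Etr1 and Tbx6-r.b was never used without Bra, and its part cannot be told apart from that of the Bra coding sequence. The share of cells that took up a plasmid is not given in the labels, and in whole embryos more expressing cells and more RNA per cell cannot be told apart. The submitters call the replicates biological, and p-values rest on the spread between these libraries. In some fits given below, that spread was taken from all genes together and not from each gene. Libraries held 9043181 to 10399304 gene-assigned reads.

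Bra is a T-box factor, a protein that binds DNA through a conserved domain and activates target genes. In Ciona it is made in the notochord, the stiff rod along the tail of the tadpole larva, and it is required there for notochord fate. Etr1 encodes an RNA-binding protein of the nervous system and Tbx6-r.b a T-box factor of the tail muscle, so their regulatory DNA is used to place Bra in tissues that do not normally make it. The series is titled as a study of Bra in a feedforward network for notochord fate, a circuit in which a factor and its target act together on further genes. The tables give KH2012 gene IDs without names, and the RefSeq gene table for the species (21486 genes) matched 0 of them. No member can therefore be given a name, a role or a sequence here, and lists of notochord, neural or muscle genes could not be counted among the members.

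The members had low read counts in control embryos. Counts are not per transcript length, so they rank genes by reads and not by expression. Levels below are reads recovered from the deposited values and scaled together over all 9 libraries, in normalized counts, and the log2 changes come from the deposited values as the rule states. The control means of the members ran from 10.4 to 1085 with a median of 29.1. Over all 11267 genes tested against control with both constructs and with a control mean of at least 10, the median was 206. By control mean, 21 members lay under 20, 35 between 20 and 50, 12 between 50 and 100 and 11 at 100 or more. The rule set no upper limit on the level.

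By the first letter of the middle part of their IDs, the members were spread much as all tested genes were. The middle part of a KH ID starts with C, L or S. Of the members, 55 of 79 (69.6%) had an ID of the C kind, 18 (22.8%) of the L kind and 6 (7.59%) of the S kind, where the 11267 genes had 70.3%, 20.1% and 9.64%. The 79 IDs had 35 different middle parts, of which 21 occurred in a single member. C3 was the most frequent, with 8 members (10.1%) against 6.18% of all tested genes, followed by C8 and C9 with 7 members each. KH.L22.27 and KH.L22.34 shared a middle part, as did KH.L96.14 and KH.L96.76. Each pair was 2.53% of the members, against 0.453% of all tested genes for L22 and 0.834% for L96. Whether any of these lie side by side in the genome was not examined.

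The mean log2 change of the members, which the rule used and which is given as a description, ran from 1.01 to 5.92 for Etr1>Bra (median 1.98) and from 1.01 to 4.08 for Tbx6-r.b>Bra (median 1.52). Over the 11267 genes the medians were −0.02 with each construct. A mean change of at least 2, a 4-fold increase, was reached by 38 members under Etr1>Bra, by 20 under Tbx6-r.b>Bra and by 14 under both. In 22 members the smaller of both means was under 1.25, close to the limit. All 6 construct libraries stood above all 3 controls in 63 members, a separation that 2.64% of all 11494 genes tested in a fit of all 9 libraries showed. In limma, 6 members passed as higher with Etr1>Bra (background 0.13% of genes tested) and 31 as higher with Tbx6-r.b>Bra (background 0.507%). With the replicate number as a block, 70 members passed for Etr1>Bra (background 3.49%) and 79 for Tbx6-r.b>Bra (background 2.98%). Because the rule used these contrasts, nothing is read from those counts. Both comparisons share the 3 control libraries.

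**Figure D1:**
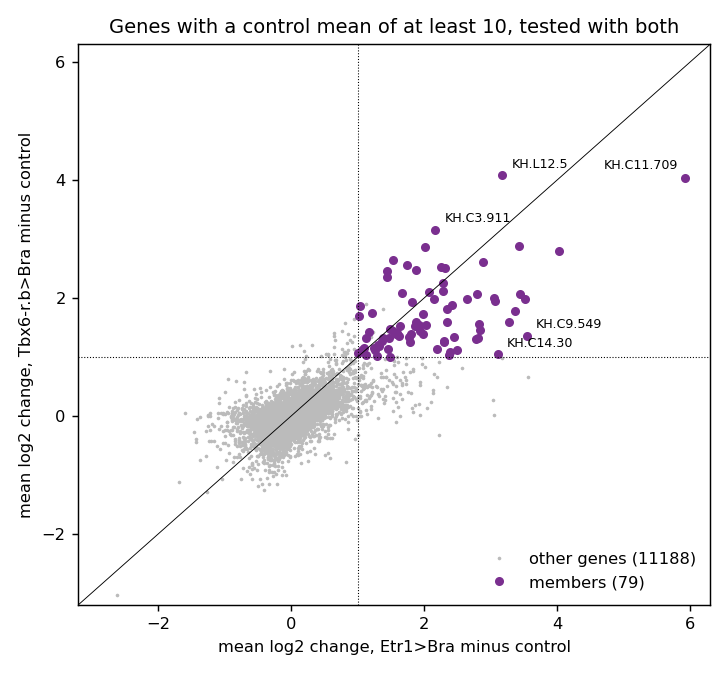
Mean log2 change with Etr1>Bra (x axis) and Tbx6-r.b>Bra (y axis) for 11267 genes, each change taken against control; the 79 members are purple, the dotted lines mark the limit of 1 and the solid line marks equal changes. The members lie up and right of the limit by choice, and they spread to both sides of the solid line, from KH.L12.5 above it to KH.C9.549 and KH.C14.30 below it.

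Of the members with large changes under both constructs, KH.C11.709 had the highest smaller mean. Its level was 369, 796 and 1832 normalized counts in Etr1>Bra embryos and 167, 248 and 257 in Tbx6-r.b>Bra embryos, against 18.3, 10.3 and 10.3 in control. Every construct library was at least several times the highest control, and the mean was 77.2 times that of control under Etr1>Bra and 17.3 times under Tbx6-r.b>Bra. KH.L12.5 stood at 222, 331 and 1062 with Etr1>Bra and at 765, 1000.4 and 680 with Tbx6-r.b>Bra, against 70.1, 35.5 and 40.2 in control. Here the Tbx6-r.b>Bra libraries were close together, while the Etr1>Bra libraries were spread to both sides of them. KH.C4.411 stood at 352, 709 and 1604 under Etr1>Bra, at 320, 275 and 350 under Tbx6-r.b>Bra and at 53.8, 33.7 and 48.6 in control. KH.S1390.1 stood at 104, 228 and 477 under Etr1>Bra, at 119, 250.1 and 126 under Tbx6-r.b>Bra and at 12.2, 25.2 and 26.2 in control. In both genes replicate 3 was the highest of the Etr1>Bra libraries, and no construct library overlapped a control library.

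The 4 members with the highest control means ranged widely in fold change. KH.C7.377, with the highest control mean, stood at 1844, 1759 and 2997 normalized counts in Etr1>Bra embryos and at 2176, 2846 and 1806 in Tbx6-r.b>Bra embryos, against 873, 1164 and 1168 in control. Its mean was 2.06 times that of control under Etr1>Bra and 2.13 times under Tbx6-r.b>Bra, and its mean log2 change of 1.01 ± 0.39 for Etr1>Bra and 1.07 ± 0.39 for Tbx6-r.b>Bra (SD, n = 3 pairs) put it just inside the limit. KH.C9.549 stood at 3048, 5162 and 11445 in Etr1>Bra embryos and at 1076, 1698 and 1070.5 in Tbx6-r.b>Bra embryos, against 490, 570 and 408 in control. Its mean was 13.4 times that of control under Etr1>Bra, where each library stood above all others, and 2.62 times under Tbx6-r.b>Bra. Under Etr1>Bra the other two of these 4 members lay in between. KH.C9.374 was 3.31 times control under Etr1>Bra and 2.64 times under Tbx6-r.b>Bra, and KH.S766.1 was 4.14 times control under Etr1>Bra and 2.91 times under Tbx6-r.b>Bra.

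Genes near the limit showed how little separated inside from outside. KH.C12.633 was kept with a mean log2 change of 1.01 ± 1.30 with Tbx6-r.b>Bra, made of 0.05, 2.48 and 0.49 in pairs 1, 2 and 3 (a pair is a construct and a control library of the same number). KH.C9.681 was left out with a mean log2 change of 0.995 with Etr1>Bra, although its level of 235, 304 and 1049 in Etr1>Bra embryos and 288, 476 and 707 in Tbx6-r.b>Bra embryos stood against 186, 169 and 298 in control. KH.C7.384 was left out at 0.994 with Tbx6-r.b>Bra.

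The changes were unequal among the replicate pairs, and most members shared the inequality. The median log2 change over the members was 1.15, 1.84 and 2.97 in pairs 1, 2 and 3 of Etr1>Bra, and 1.29, 1.94 and 1.57 in those of Tbx6-r.b>Bra. With Etr1>Bra, pair 3 gave the largest of the 3 changes in 76 of 79 members, against 33.0% of the 11388 genes tested in both comparisons. Pair 1 gave the smallest in 66 (37.6% of genes). With Tbx6-r.b>Bra, pair 2 gave the largest change in 58 members (36.4% of genes) and pair 1 the smallest in 51 (27.8% of genes). These ratios are the values the rule used, so the counts describe the members and were not tested.

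The inequality was also seen in the levels of the construct libraries, and the part of the controls in it was not tested. By level, Etr1>Bra replicate 3 was the highest of the Etr1>Bra libraries in 77 members (32.7% of genes), and Tbx6-r.b>Bra replicate 2 the highest of its group in 59 (34.8% of genes). Control replicates 1, 2 and 3 were the highest control in 25, 20 and 34 members (36.1%, 31.9% and 32.1% of genes). Etr1>Bra replicate 3 held the highest level of all 9 libraries in 68 members and at least 2 times the level of Etr1>Bra replicate 1 in 73. A Tbx6-r.b>Bra library was the highest of all 9 in the remaining 11. The rule sets each construct library above its paired control, so a construct library is the highest by choice. The shares of all genes for these counts of 68, 73 and 11 were not taken. The coefficient of variation between replicates had a median over the members of 66.1% among Etr1>Bra libraries, 31.8% among Tbx6-r.b>Bra libraries and 28.5% in control, against 17.1%, 16.2% and 13.8% over the 11267 genes. The members also had lower counts than those genes, and the part of this in the spread was not tested.

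**Figure D2:**
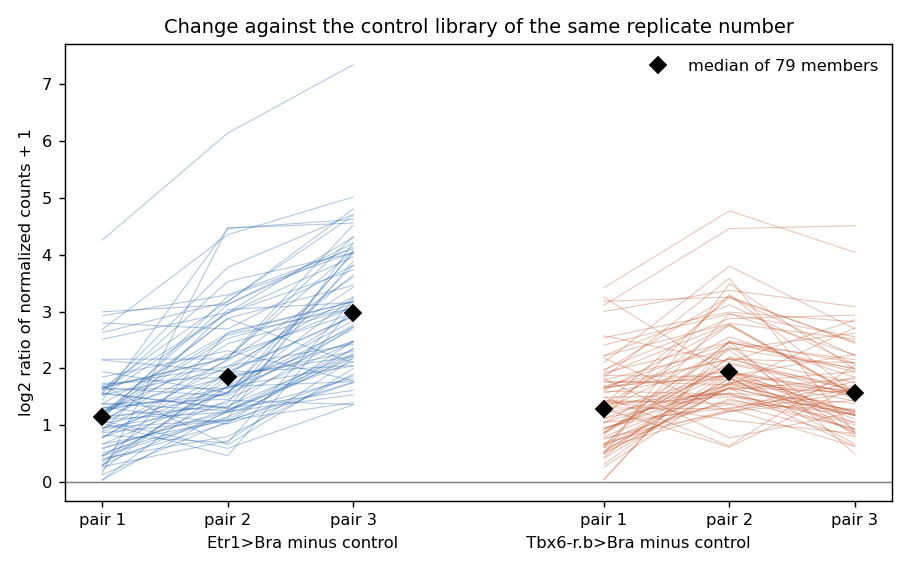
Log2 ratio of normalized count + 1 against the control library of the same replicate number (y axis) in the 3 pairs of each construct (x axis); each line joins the values of 1 of the 79 members and the diamonds are medians. With Etr1>Bra the median is 2.97 in pair 3 and 1.15 in pair 1, while with Tbx6-r.b>Bra the medians lie between 1.29 and 1.94.

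The share of each library's reads that fell on the members sums the same values that the rule used, and is given as a description. They took 0.131%, 0.237% and 0.506% of the reads of Etr1>Bra replicates 1, 2 and 3, a mean of 0.291 ± 0.193% (SD, n = 3). In the Tbx6-r.b>Bra libraries they took 0.144%, 0.225% and 0.189%, a mean of 0.186 ± 0.0405%, and in the control libraries 0.0524%, 0.0592% and 0.0642%, a mean of 0.0586 ± 0.00590%. Without KH.C9.549, the means were 0.224 ± 0.147% under Etr1>Bra, 0.172 ± 0.0374% under Tbx6-r.b>Bra and 0.0534 ± 0.00619% in control. A member had a median of 70, 120 and 295 reads in the Etr1>Bra libraries, of 75, 129 and 109 in the Tbx6-r.b>Bra libraries and of 31, 29 and 30 in the control libraries.

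**Figure D3:**
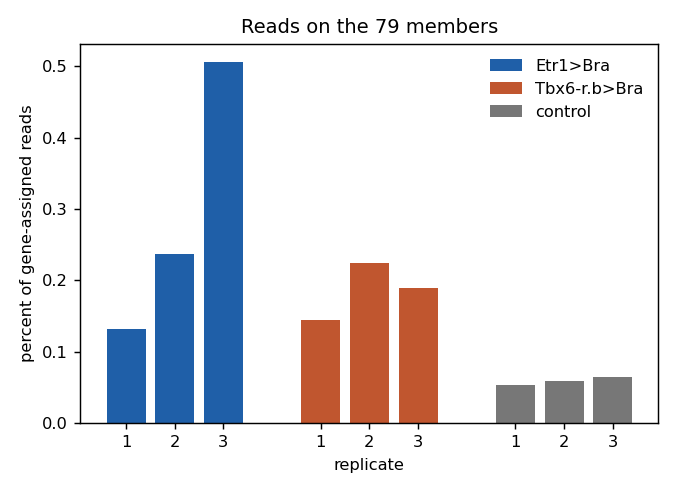
Percent of gene-assigned reads on the 79 members (y axis, from 0) in each library, by group and replicate (x axis). Etr1>Bra replicate 3 stands at 0.506%, all Tbx6-r.b>Bra libraries lie between 0.144% and 0.225%, and the control libraries lie between 0.0524% and 0.0642%.

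Members differed in how even their ratios were. KH.L22.34 had the smallest SD of all 6 log2 ratios (0.325), followed by KH.C7.377 (0.349). The log2 changes of KH.L22.34 were 1.10, 1.23 and 1.82 under Etr1>Bra and 1.49, 1.53 and 0.93 under Tbx6-r.b>Bra. In 30 members all 6 log2 ratios were at least 1. By the range of the 3 ratios of a construct, the widest were KH.C7.410 and KH.L96.14. KH.C7.410 had log2 changes of 0.16, 4.47 and 4.56 with Etr1>Bra. Its control level was 32.5, 0.935 and 3.74, and its level with Etr1>Bra was 36.5, 41.6 and 110.3, so its changes in pairs 2 and 3 rested on controls of a few reads or fewer. KH.L96.14 had log2 changes of 0.46, 1.13 and 4.21 with Etr1>Bra, on 47.9, 97.2 and 294 against 34.5, 43.9 and 14.9 in control. In 7 members at least 1 ratio was under 0.25, in pair 1 of Etr1>Bra for 5 of them and in pair 1 of Tbx6-r.b>Bra for 2.

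**Figure D4:**
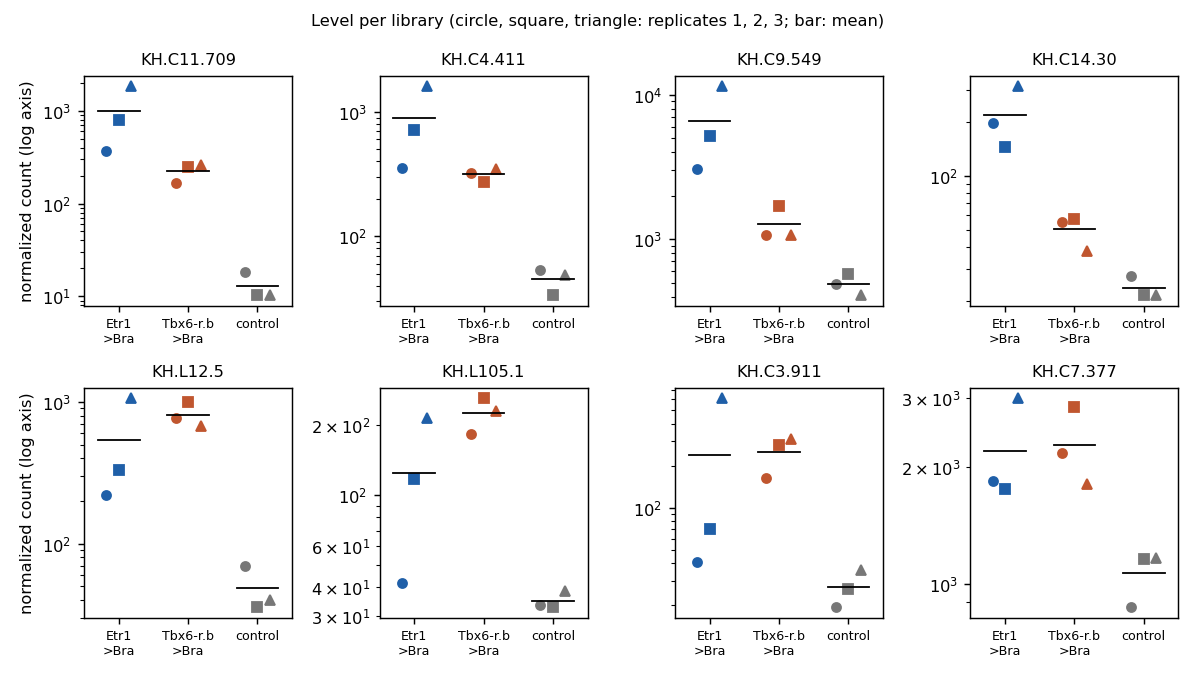
Normalized count on a log axis (y) in each library of Etr1>Bra, Tbx6-r.b>Bra and control (x) for 8 members; circles, squares and triangles are replicates 1, 2 and 3, and bars are group means. KH.C9.549 and KH.C14.30 stand higher with Etr1>Bra in every replicate, while in KH.L12.5 and KH.C3.911 the 3 Tbx6-r.b>Bra libraries lie between Etr1>Bra replicate 3 and the other Etr1>Bra libraries.

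The rule does not set which construct gives the higher level, so the constructs were compared with each other without the controls. The levels of these construct libraries were still part of the rule, and the members were chosen for large changes in them. Most other genes changed little, so the shares over all genes are not those of equally changed genes. Without a block, limma called 0 of the 79 members (background 0% of 11529 genes), with a smallest adjusted p of 0.156. At an unadjusted p under 0.05, limma had 20 members, against 3.04% of all genes. By edgeR 0 members were called (background 0%), and 18 had an unadjusted p under 0.05, against 3.01% of all genes. DESeq2, which tested 78 of the members, called 4 (background 0.338%), all higher with Etr1>Bra. The mean log2 difference, Etr1>Bra minus Tbx6-r.b>Bra, had a median of 0.27 over the members, against 0.01 over all genes, and it was above 0 in 58 members and below 0 in 21. It was at least 1 in 21 members, at most −1 in 2 and within 0.5 of 0 in 39. Its 95% interval in limma, not adjusted for the number of genes, had a median half-width of 0.95 over the members. Most differences under 2-fold could not be shown at this spread. Larger ones were not called by limma without a block either, and 0 of the 21 members with a difference of at least 1 passed.

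Libraries of the same number deviated together, so the fit with the replicate number as a block is given too. It called 31 of the 79 members (39.2%), where 2.71% of all genes were called. Of these, 23 were higher with Etr1>Bra (background 1.84%) and 8 lower with Etr1>Bra (background 0.876%). Among the 23, 21 were higher with Etr1>Bra in all 3 pairs, and in all 23 the difference was largest in pair 3. The 8 were lower with Etr1>Bra in pairs 1 and 2, and 3 of them in pair 3 as well. For each expression level this limma fit took 1 spread from all genes together, so its p-values do not use a gene's own spread between pairs. The blocked DESeq2 test called 6 members (background 0.451%), all higher with Etr1>Bra. The count also depended on single pairs: limma with the block called 23 members without replicate 1 (background 1.76%), 0 without replicate 2 (background 0%) and 17 without replicate 3 (background 0.533%). Without replicate 1 all 23 were higher with Etr1>Bra, and without replicate 3, 6 were higher and 11 lower with Etr1>Bra. No member was called lower without replicate 1, without replicate 2 or in the blocked fit of all 9 libraries.

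KH.C9.549 had the largest difference in favour of Etr1>Bra, with log2 differences of 1.50, 1.60 and 3.42 in pairs 1, 2 and 3. Its mean difference was 2.17 ± 0.39 (SE, 95% interval 1.30 to 3.05), and its limma adjusted p was 0.426, or 3.1e-38 with the block, and alternatives spanned 3.1e-38 to 0.9999. KH.C14.30 followed with 197, 145 and 315 normalized counts in Etr1>Bra embryos and 54.9, 57.4 and 38.2 in Tbx6-r.b>Bra embryos, against 27.4, 21.5 and 21.5 in control. All 3 Etr1>Bra libraries stood above all 3 Tbx6-r.b>Bra libraries, a separation in that direction shown by 7 members and by 2.8% of all genes. Its log2 difference was 2.05 ± 0.30 (95% interval 1.38 to 2.72), with a limma adjusted p of 0.156, or 2.5e-19 with the block, and alternatives spanned 2.5e-19 to 0.878. KH.C11.709 differed by 1.88 ± 0.46 and KH.C2.650 by 1.68 ± 0.63, with limma adjusted p of 2.1e-24 and 2.6e-11 with the block (alternatives up to 0.99995 and 0.99999). All 4 had a positive difference in every pair.

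In the other direction, KH.L105.1 stood at 41.7, 117 and 216 normalized counts in Etr1>Bra embryos and at 184, 262 and 231 in Tbx6-r.b>Bra embryos, against 33.5, 32.7 and 38.3 in control. Its log2 difference was −1.12 ± 0.47 (95% interval −2.16 to −0.08), called by limma with the block (adjusted p = 1.6e-06, alternatives 1.4e-07 to 0.99999). KH.L134.6 had log2 differences of −2.38, −0.18 and −0.49 in pairs 1, 2 and 3 and KH.L96.76 of −1.17, −1.37 and −0.26, and both were called with the block (limma adjusted p of 0.0041 and 0.00056). Alternatives spanned limma, edgeR and DESeq2 adjusted p of 0.0041 to 0.99999 for KH.L134.6 and 0.0005 to 0.99999 for KH.L96.76. In blocked fits, KH.L134.6 was not called by edgeR (adjusted p = 0.0736), and neither gene was called by DESeq2 or in limma with all 9 libraries (adjusted p of 0.985 and 0.17 for KH.L134.6 and of 0.187 and 0.146 for KH.L96.76). KH.C3.911 and KH.L12.5 were called as lower with Etr1>Bra with the block although pair 3 went the other way. KH.C3.911 stood at 40.7, 70.4 and 608 with Etr1>Bra and at 163, 282 and 310.2 with Tbx6-r.b>Bra, which gave log2 differences of −1.97, −1.98 and 0.97. Its group means were nearly equal, 239.8 ± 319 in Etr1>Bra embryos and 251 ± 78.2 in Tbx6-r.b>Bra embryos (SD, n = 3). No member had all 3 Etr1>Bra libraries below all 3 Tbx6-r.b>Bra libraries, where 2.14% of all genes did.

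Seen pair by pair, the lean toward Etr1>Bra lay in pair 3. The median log2 difference over the members in pairs 1, 2 and 3 was −0.14, −0.21 and 1.33, while over all 11529 genes it was 0.00, −0.01 and 0.02. Etr1>Bra was above Tbx6-r.b>Bra in 32 members in pair 1, in 33 in pair 2 and in 75 in pair 3, against 50.3%, 49.3% and 52.1% of all genes. Of the members, 33 were lower with Etr1>Bra in pairs 1 and 2 and higher in pair 3, for which the share of all genes was not taken. In all 3 pairs 22 members were higher with Etr1>Bra (10.5% of all genes) and 3 were lower (9.35% of all genes).

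The members kept much the same order by construct in every pair, even though the pairs differed in size. Across the 79 members, the log2 difference correlated between pairs 1 and 2 with Pearson's r of 0.70 (Spearman's rho 0.66), between pairs 1 and 3 with 0.77 (0.73) and between pairs 2 and 3 with 0.71 (0.68). Over all 11529 genes the same values were 0.09 (−0.13), 0.31 (0.35) and 0.12 (−0.17). Those genes mostly differed little, with quartiles of the mean difference at −0.10 and 0.11, against −0.04 and 1.03 over the members. The members were chosen for large changes in these libraries, so the correlations were not compared with those of equally changed genes. The pairs share no library, but genes are not independent replicates, and no test was made. After the median of the members in each pair was set to 0, 25 members lay above it in all 3 pairs, on the side of Etr1>Bra, and 21 below it in all 3, on the side of Tbx6-r.b>Bra. Set against their own median in the same way, 10.5% of all 11529 genes lay above it in all 3 pairs and 9.75% below.

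**Figure D5:**
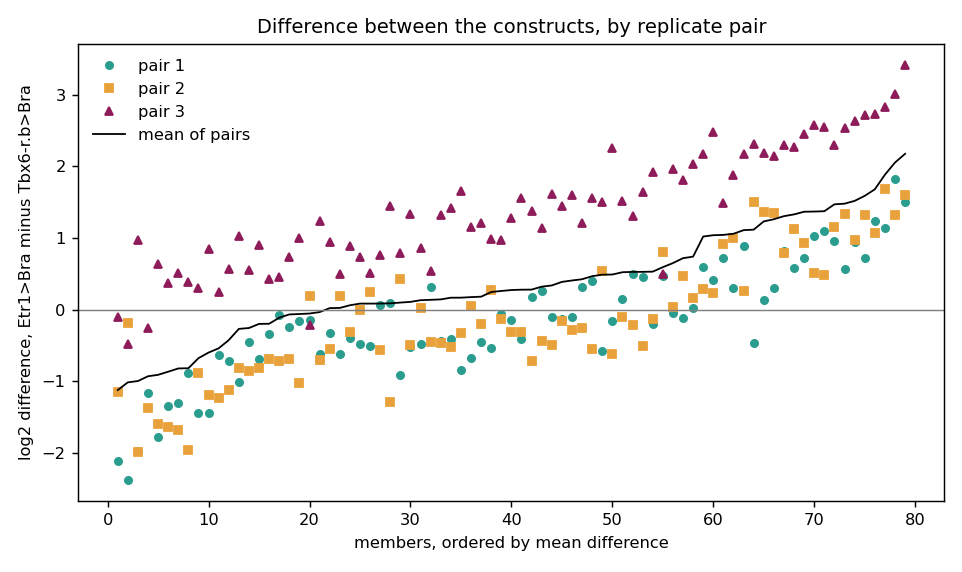
Log2 difference in level, Etr1>Bra minus Tbx6-r.b>Bra (y axis), for the 79 members ordered by their mean difference (x axis), with a marker for each replicate pair and a line for the mean. The triangles of pair 3 lie above 0 in 75 members, while those of pairs 1 and 2 lie above 0 in 32 and 33 members, mostly to the right.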

How the data were processed

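RNA was sequenced from 9 whole-embryo libraries (stranded mRNA kit, per the labels' protocols). Per the file headers, the authors deposited normalized counts (a signal scaled by library size) and regularized log2 values, in 1 table per construct. The submitters' processing notes list TopHat2 2.9.8b and DESeq 1.8.1. How reads were counted, by strand or not, and on which genome build is not given in the sources used here. Overlapping, antisense or near-identical genes may therefore share reads.

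Division by the smallest value of a library turned 100% of its deposited values into whole numbers (tolerance 0.01), so whole reads were recovered. Control reads differed between the tables in 0 values. All 9 libraries were scaled together by median of ratios, which differed from the deposited scaling by at most 1.67%. Replicates differed by more than sampling noise (mean chi-square per gene 11.6 to 36.2).

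The members and all choices of genes were made with earlier results of these data known. The log2 of normalized count + 1 was tested with limma 3.58.1 in R 4.3.3 (intensity trend, two-sided) wherever a gene's mean was at least 10, with Benjamini-Hochberg adjusted p under 0.05 over all genes. The added 1 makes changes of genes with few reads look smaller. The edgeR quasi-likelihood test (4.0.16) and DESeq2 (1.42.0) were run on recovered reads as alternatives. Libraries with the same number in their titles deviated together from their group means (r of 0.476 to 0.719 over 11494 genes), so the numbers were taken to pair the libraries. With the block, limma had an infinite prior in the comparison of the constructs, so genes of the same expression level shared 1 spread.

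The IDs named are the 4 members with the largest smaller mean change, the 4 with the highest control mean, the 4 at each end of the difference between constructs, the 2 nearest inside and the 2 nearest outside the limit, the 2 with the smallest SD of all 6 log2 ratios, and the 2 with the largest range of the 3 log2 ratios of 1 construct. KH.L22.27 was named after its ID was seen.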

Additional observations from a re-analysis of the deposited data

Results flagged for a closer look

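In limma with the replicate number as a block, 31 members were called as different between the constructs, against 2.71% of all genes. For each expression level that fit took 1 spread from all genes together, so its p-values do not use a gene's own spread between pairs. The levels it compared were also part of the rule. Without the block limma called 0 members, and DESeq2 with the block called 6. Among the named members, the log2 difference Etr1>Bra minus Tbx6-r.b>Bra that passed with the block was 2.17 for KH.C9.549, 2.05 for KH.C14.30, 1.88 for KH.C11.709, 1.68 for KH.C2.650, 1.23 for KH.C4.411 and 1.12 for KH.C7.410. It was −1.12 for KH.L105.1, −1.02 for KH.L134.6, −0.997 for KH.C3.911, −0.93 for KH.L96.76 and −0.91 for KH.L12.5. Of the 23 members higher with Etr1>Bra, 6 were also called higher without replicate 3, and all 8 that were lower were also called lower without it. Of those 8, 5 were higher with Etr1>Bra in pair 3, so leaving that number out took away values against a lower call. None of the 8 was called lower without replicate 1, without replicate 2 or with all 9 libraries and the block. The part of Etr1>Bra replicate 3, the highest Etr1>Bra library in 77 members, in these differences was not tested beyond leaving that number out.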

How the results depend on the processing

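Applied in other ways, the rule kept 23 genes with a control mean of at least 50, 212 with no minimum and 6 on the regularized log2 values, which shrink the changes of low genes by construction. The other settings gave 56 to 118 genes, and leaving out a replicate number gave 72 to 117 (74 without replicate 3, of which 58 were among the 79). Between the constructs, the count of 0 called members was 31 with the replicate block, 30 with edgeR and the block, 4 with DESeq2, 6 with DESeq2 and the block, 28 with TMM scaling and the block and 12 with all 9 libraries and the block. These settings called 2.71%, 2.65%, 0.338%, 0.451%, 2.27% and 1.16% of all genes, in the same order. With the block the count was 23, 0 and 17 when replicate number 1, 2 or 3 was left out. The shares of all genes were then 1.76%, 0% and 0.533%. With no block the count ran from 0 to 13 with 1 library left out. It was 13 (0.625% of all genes) without Etr1>Bra replicate 1, all higher with Etr1>Bra. Without Etr1>Bra replicate 3 it was 3 (0.061% of all genes), 1 higher and 2 lower with Etr1>Bra. With any other construct library left out it was 0 (at most 0.00867% of all genes). For Etr1>Bra against control, the count of 6 was 70 with the block, 73 with edgeR and the block, 60 with DESeq2, 61 with DESeq2 and the block, 70 with TMM and the block, 25 with all 9 libraries and 76 with these and the block. In the same order, 3.88%, 4.13%, 2.55%, 3.17%, 3.69%, 0.766% and 5.01% of all genes were called in either direction. With the block the count was 79, 5 and 65 when replicate number 1, 2 or 3 was left out. The shares of all genes were then 10.7%, 0.0697% and 2.9%. With no block the count was 41, 0 and 9 when replicate 1, 2 or 3 of Etr1>Bra was left out (1.47%, 0% and 0.166%). It was 2, 1 and 0 for those of control (0.0434%, 0.0174% and 0.00867%). For Tbx6-r.b>Bra against control the count of 31 became 79, 79, 54, 62, 79, 12 and 70 under the same 7 settings in the same order. These called 3.9%, 3.88%, 1.22%, 1.97%, 3.85%, 0.226% and 2.06% of all genes in either direction. With the block the count was 79, 68 and 72 when replicate number 1, 2 or 3 was left out. The shares of all genes were then 2.36%, 2.6% and 4.23%. With no block the count was 43, 12 and 10 when replicate 1, 2 or 3 of Tbx6-r.b>Bra was left out (0.821%, 0.123% and 0.122%). It was 40, 19 and 30 for those of control (0.681%, 0.297% and 0.498%). The rule used both contrasts with control, so nothing is read from the counts against control. The median change in pair 3 of Tbx6-r.b>Bra was 1.24 with a pseudocount of 10, and the share of reads in control replicate 2 was 0.0532% without KH.C9.549. Differences between the constructs that were called nowhere changed sign when 1 library was left out. They ranged there from −0.011 to 1.08 for KH.S1390.1, −0.31 to 0.11 for KH.C7.377, −0.26 to 0.62 for KH.C9.374, −0.055 to 0.82 for KH.S766.1, −0.19 to 0.80 for KH.C12.633, −0.41 to 0.53 for KH.L22.34 and −0.21 to 1.09 for KH.L96.14. With the block and replicate number 3 left out they were −0.16, −0.47, −0.33, −0.14, −0.077, −0.35 and −0.40 in the same order, and KH.C7.377 was at 0.018 without number 1 and 0.25 without number 2. Where a setting changed a count, the cause was not tested. The 3 libraries per group and the wide spread of the Etr1>Bra libraries limit what can be shown.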
